A study of Mus musculus with 5 samples.

Results

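The Rab, Arf and Arl genes encode the small GTPases that direct membrane traffic. Each protein cycles between a form bound to GTP, which sits on a membrane and recruits effectors, and a form bound to GDP. Exchange factors switch it on and GTPase-activating proteins switch it off. Rab proteins give organelles their identity and guide vesicle transport and tethering, Arf proteins recruit vesicle coats, and Arf-like (Arl) proteins act at the Golgi, lysosome and cilium. In stromal cells of bone this machinery carries procollagen out through the Golgi and takes up and recycles surface receptors.

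The members were chosen by gene symbol: Rab, Arf or Arl followed by a number and optional letters. In all, 79 of the 14161 genes listed in any library matched, and 74 of them are GTPase genes. The other 5 are the partner proteins Rab3ip, Arl2bp and Arl14ep and the opposite-strand transcripts Rab10os and Rab26os, which the same pattern picks up. Of the 79, 41 were well measured, with 20 or more counts summed over all libraries, and 28 passed the filter on low counts and were tested.

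The tested libraries are 3 of Bmal1-knockout and 2 of wild type bone mesenchymal stem cells. Bmal1 (gene symbol Arntl) encodes the clock transcription factor that pairs with CLOCK and binds E-boxes, and the comparison was made to find genes that depend on it. All cells were grown from femur marrow of C57BL/6 mice aged 6 to 8 weeks, in α-MEM with 12% serum, at passages 1 to 3, and total RNA was sequenced. The labels do not say which part of Bmal1 was removed, in which cells, or whether libraries of 1 genotype came from separate mice, so p-values measure the spread between these libraries, which may be technical.

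Expected counts summed to 226695, 237088 and 281990 across knockout libraries, against 243072 and 211623 in wild type. A count of 0 therefore allowed up to 12.1 to 15.9 CPM (3 counts; CPM are counts scaled to 1e6 of the TMM-scaled total of tested genes; counting error only). Arntl itself had 4, 1 and 2 counts across knockout libraries, against 5 and 0 in wild type, too few to check the labels. The 18 stromal markers were all listed and summed to 14807, 14038 and 13979 CPM across knockout libraries, against 5859 and 5666 CPM in wild type. The 20 macrophage and monocyte markers were also all listed and summed to 12049, 10801 and 11252 CPM across knockout libraries, against 17702 and 17374 CPM in wild type. By the test described below, 6 of 12 tested stromal markers were higher in the knockout and 6 were not called. Of 19 tested macrophage and monocyte markers, 9 were lower and 10 were not called. Among all tested genes 8.19% were higher and 8.14% lower. The label of mesenchymal stem cells therefore stands beside macrophage markers in every library. In such bulk samples fewer cells of a type and less RNA per cell cannot be told apart. The 11 contractile markers summed to 3935, 3342 and 3379 CPM across knockout libraries, against 1226 and 1382 CPM in wild type. Osteoclast markers summed to 146 to 211 CPM across knockout libraries, against 308 and 428 CPM in wild type, with Calcr, Ocstamp and Dcstamp at 0. Endothelial markers held 147 to 202 CPM and erythroid markers at most 5 CPM in any library. Lymphocyte markers stayed at 9 to 34 CPM, and Cd3d, Cd3e, Cd3g and Klrb1c were among those at 0. Neutrophil markers stayed at 5 to 16 CPM with S100a9, Ly6g, Elane, Mpo, Ngp and Ltf at 0.

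As a family the trafficking GTPases had overlapping total levels in both genotypes, and 1 member, Arf4, rose in the knockout. The 79 genes summed to 3536, 3299 and 3459 CPM across knockout libraries, against 3486 and 3364 CPM in wild type (means 3432 ± 121 and 3425 ± 86, SD, n = 3 and 2). They took 0.325%, 0.293% and 0.303% of all counts across knockout libraries, against 0.305% and 0.299% in the wild type. With edgeR's quasi-likelihood test and Benjamini-Hochberg adjustment over all 3710 tested genes, 1 of the 28 tested members was higher and 0 were lower at an adjusted p under 0.05. Among all tested genes 8.19% were higher and 8.14% lower. Before adjustment 3 members were higher and 2 lower at a p under 0.05, and DESeq2 gave 1 higher and 0 lower and limma-voom 2 higher and 1 lower at that level. After adjustment both tools also called 1 member higher and 0 lower. The median log2 fold change, knockout over wild type, was 0.03 over the 28 members and 0.01 over all tested genes. Every knockout library lay above every wild type library for 5 of the 28 members (Arf4, Arl1, Rab11a, Rab14 and Arl14ep) and below for 2 (Arl4c and Rab8b), where the same held for 21.2% and 21.6% of all tested genes. Arl1, Arl14ep and also Rab21, whose groups overlapped, reached the cutoff of the filter in knockout libraries alone.

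Levels are compared between genes in FPKM, which the authors scaled by gene length. The most abundant members were Arf1, which recruits the COPI coat at the Golgi, Rab7, which drives late endosomes to lysosomes, and Rab10, which delivers vesicles to the cell surface. Arf1 stood at 79.4 ± 6.60 FPKM in the knockout (SD, n = 3) and 84.2 ± 6.59 FPKM in the wild type (n = 2). Rab7 stood at 71.3 ± 23.2 FPKM in the knockout and 85.0 ± 7.95 FPKM in the wild type. Rab10 stood at 66.4 ± 9.58 FPKM in the knockout and 75.3 ± 5.70 FPKM in the wild type, so these 3 neighbours did not differ beyond their spread. Rab5c, an early endosome Rab, ranked 6 in the knockout and 4 in the wild type, at 51.4 ± 5.02 FPKM in the knockout and 67.7 ± 15.1 FPKM in the wild type. Arf4 ranked 4 of 79 in the knockout and 10 in the wild type. Arl1, which recruits golgins to the trans-Golgi, ranked 5 in the knockout and 7 in the wild type. The 10 most abundant members held 48.2% of the family's summed FPKM. Across the 79 members, mean FPKM in the knockout and in the wild type had a Spearman correlation of 0.88, a description of genes measured in the same libraries.

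**Figure D1:**
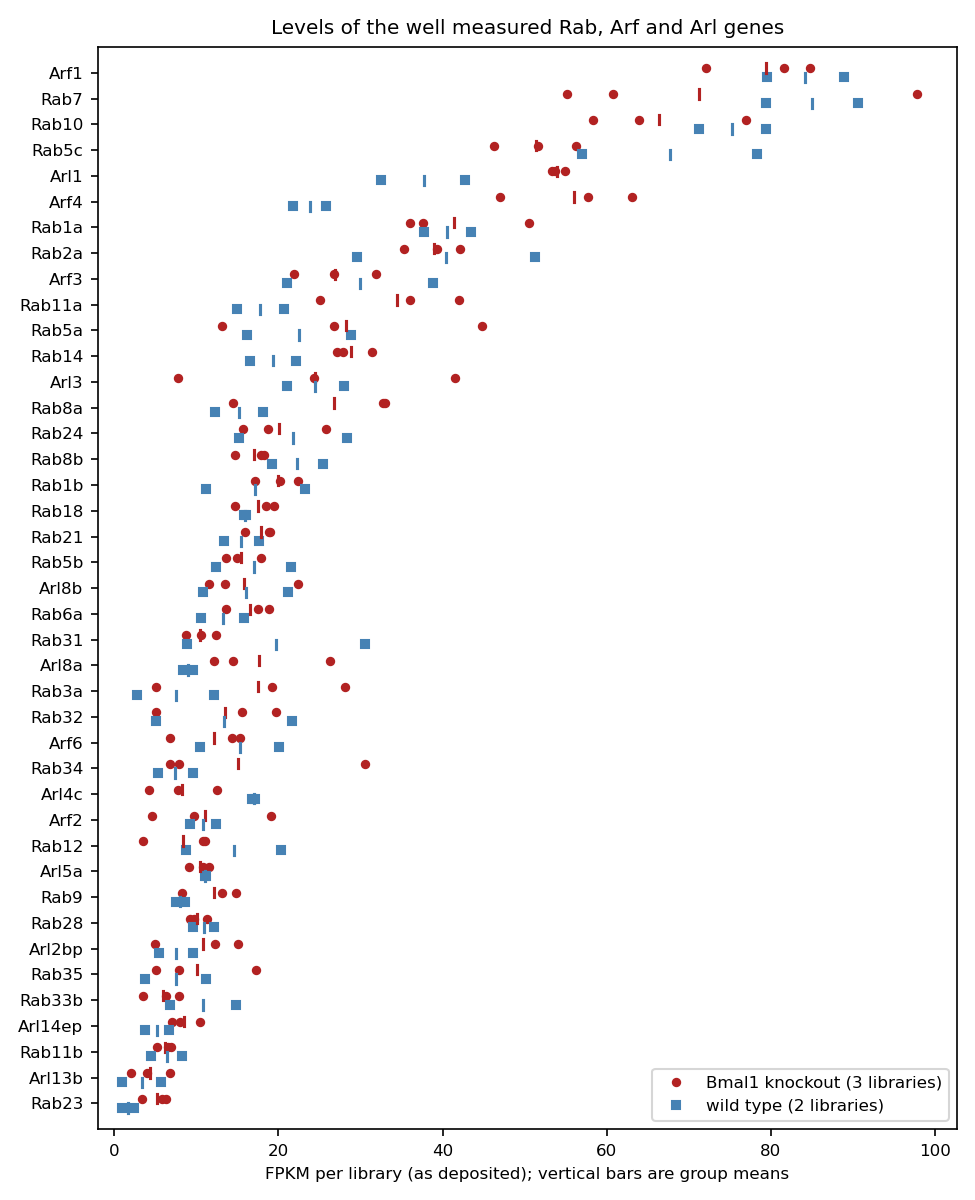
FPKM in each library (horizontal axis, as deposited) of the 41 well measured members, ordered by their mean over all libraries. Circles are the 3 knockout and squares the 2 wild type libraries, and short vertical bars mark group means. Arf4 is the gene near the top whose knockout libraries (46.97 to 63.13 FPKM) lie far above its wild type libraries (21.82 and 25.85 FPKM).

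The Arf proteins are the coat-recruiting branch. Arf4, a class II Arf that works at the Golgi and in cargo sorting to cilia, lies on chromosome 14, 26638134 to 26656842 (mm10, plus strand), and has Entrez gene number 11843. It had 35, 34 and 33 counts across knockout libraries, against 15 and 11 counts in wild type. That is 168, 162 and 134 CPM across knockout libraries, against 70.5 and 58.5 CPM in wild type. All 3 knockout libraries were above both wild type libraries. Arf4 rose 2.36-fold, a log2 fold change of 1.24 (SE 0.34, 95% interval 0.57 to 1.91; edgeR adjusted p = 0.0039). The call was lost without wild type 2 (1.11, adjusted p = 0.101) and stood close to the threshold without wild type 1 (adjusted p = 0.0497) and with DESeq2 (adjusted p = 0.0489). Over all its alternatives the adjusted p ran from 0.0034 to 0.101. In GENCODE M21, exons of Arf4 lie opposite 527 exon bases of Pde12, a gene of mitochondrial RNA turnover. In RefSeq the 2 genes do not overlap, as Pde12 lies at 26664117 to 26669846. The rows of both genes hold 1 RefSeq transcript and 0 assembled transcripts. Whether counting used strand is not stated in the labels, and whether reads of the GENCODE overlap entered either count was not tested. Pde12 had 17, 12 and 9 counts across knockout libraries, against 10 and 11 in wild type, a log2 fold change of 0.13 (adjusted p = 0.888). The summed stromal and macrophage levels given above moved with genotype too, and their part in the rise of Arf4 was not tested.

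The other Arf genes did not pass the test. Arf1 had 41, 37 and 50 counts across knockout libraries, against 45 and 35 in wild type, a log2 fold change of -0.05 (interval -0.55 to 0.45). Its groups overlapped, and the interval holds differences up to about a log2 value of 0.55 in size. Arf3, a second class I Arf close to Arf1 in sequence, was at -0.17 (interval -0.75 to 0.40), with counts that were not whole. Arf6, the Arf of the plasma membrane and of endosome recycling, was at -0.35 (interval -1.12 to 0.41). Arf2, another class I member, had 6, 3 and 15 counts across knockout libraries, against 6 and 7 in wild type. Arf5, the class II relative of Arf4, had 3, 4 and 1 counts across knockout libraries, against 5 and 4 in wild type, too few to test. Summed over the 6 Arf genes, the knockout libraries held 629, 585 and 546 CPM and the wild type libraries 625 and 457 CPM, so the groups overlapped in spite of Arf4.

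Among the 18 Arf-like genes 4 were tested and none passed. Arl4c, which brings cytohesins to the plasma membrane, had the largest fall of the tested members. It had 67.3, 23.8 and 44.5 CPM across knockout libraries, against 94.0 and 90.4 CPM in wild type, so the groups did not overlap. The log2 fold change was -1.02 (SE 0.40, interval -1.81 to -0.23; adjusted p = 0.0621). Without knockout 1 it was -1.38 and passed (adjusted p = 0.0199). Arl1 had 52.8, 57.0 and 56.6 CPM across knockout libraries, against 32.9 and 42.5 CPM in wild type, a log2 fold change of 0.56 (interval -0.38 to 1.5; adjusted p = 0.479). Arl5a, a trans-Golgi member, was at -0.06 and Arl8b, which couples lysosomes to kinesin, at 0.02. Arl8a, the paralog of Arl8b, was below the filter, with 12, 7 and 7 counts across knockout libraries, against 4 and 4 in wild type. Arl3, which releases lipidated cargo in cilia, had 6, 9 and 3 counts across knockout libraries, against 6 and 8 in wild type. Arl13b, its ciliary exchange factor, had 2, 7 and 5 counts across knockout libraries, against 1 and 5 in wild type. The other 11, Arl2, Arl4a, Arl4d, Arl5b, Arl5c, Arl6, Arl10, Arl11, Arl13a, Arl15 and Arl16, had at most 12 counts in all 5 libraries together. Arl4a, another plasma membrane member, had 0 counts in each knockout library and 2 and 2 in the wild type. The 18 Arf-like genes summed to 408, 347 and 376 CPM across knockout libraries, against 451 and 425 CPM in wild type. The sums did not overlap, as held in that direction for 21.6% of all tested genes, and no test was made of them.

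Of the partner proteins, Arl14ep, which binds the GTPase ARL14, had 62.5, 66.6 and 109 CPM across knockout libraries, against 42.3 and 31.9 CPM in wild type. Its groups did not overlap, and its log2 fold change was 1.10 (SE 0.44, interval 0.23 to 1.96; adjusted p = 0.0702). It passed without knockout 1 (1.25, adjusted p = 0.0390). Its counts were not whole and its row also holds 5 assembled transcripts that are not in RefSeq. Arl2bp, which binds ARL2, had 7, 3 and 10 counts across knockout libraries, against 3 and 5 in wild type. Rab3ip, the exchange factor of Rab8, had 4 counts in all. The 3 partner proteins summed to 96.1, 95.1 and 154 CPM across knockout libraries, against 56.4 and 58.5 CPM in wild type. The sums did not overlap, as held in that direction for 21.2% of all tested genes.

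**Figure D2:**
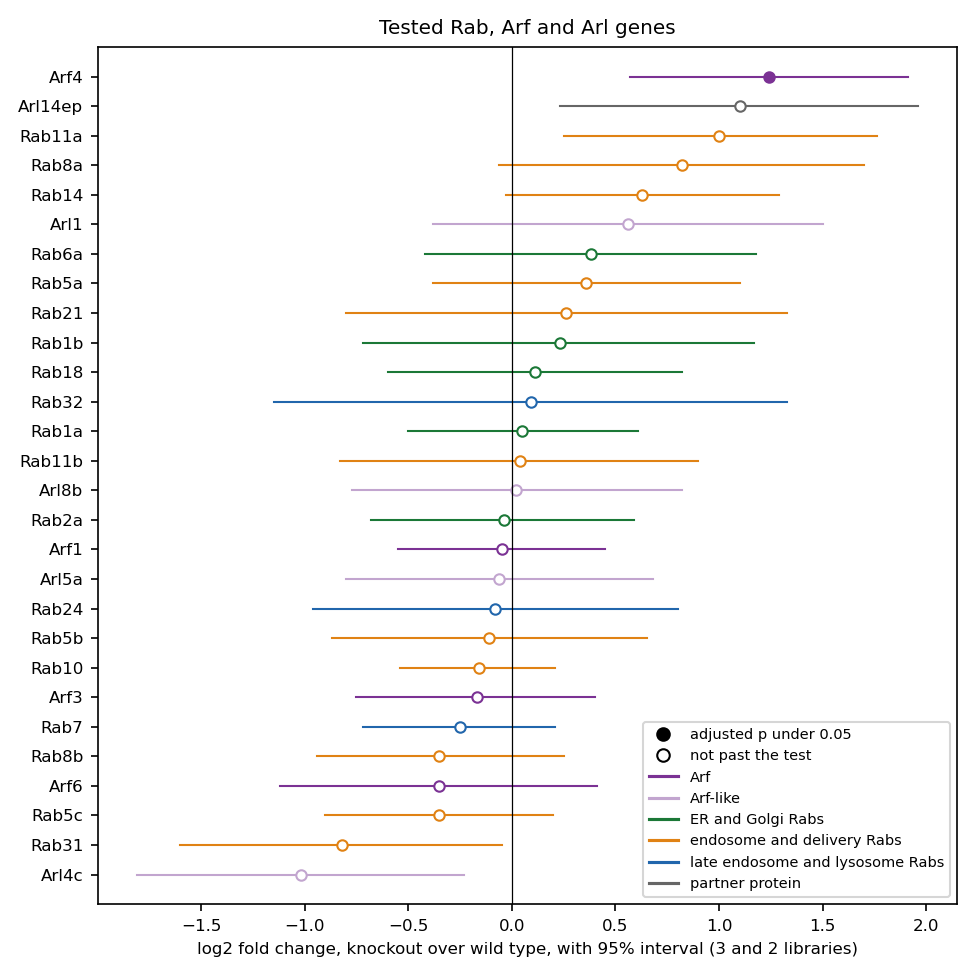
Log2 fold change, knockout over wild type, of the 28 tested members (horizontal axis) with 95% intervals from edgeR, ordered by value and coloured by role. The filled point is Arf4 at 1.24, the 1 member past the test, and most other intervals cross 0.

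The ER and Golgi Rabs, which carry cargo between the ER and the Golgi and within the Golgi, had 11 members, 5 of them tested and none past the test. Their log2 fold changes lay between -0.04 and 0.38. Rab1a, needed for ER to Golgi transport, had 178, 133 and 142 CPM across knockout libraries, against 136 and 154 CPM in wild type, with overlapping groups. Its log2 fold change was 0.05 (interval -0.50 to 0.61). Rab2a, a Golgi tethering Rab, was at -0.04 (interval -0.68 to 0.59) and stood at 38.9 ± 3.45 FPKM in the knockout and 40.4 ± 15.4 FPKM in the wild type. Rab1b was at 0.23, Rab18, a Rab of the ER and of lipid droplets, at 0.11, and Rab6a, a Rab of retrograde Golgi transport, at 0.38 (interval -0.42 to 1.18). Rab33b, a Golgi Rab linked to autophagy, had 5.22, 6.97 and 4.33 counts across knockout libraries, against 15.13 and 6 in wild type and was not tested. Rab2b, Rab6b, Rab19, Rab30 and Rab43 had 18 or fewer counts in all. The summed level of the 11 was 586, 504 and 542 CPM across knockout libraries, against 568 and 484 CPM in wild type.

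The Rabs of early and recycling endosomes and of delivery to the surface were the largest class, with 18 members, 11 tested and none past the test (range -0.82 to 1.00). Rab11a, which marks the recycling endosome, stood at the upper end. It had 111, 80.8 and 138 CPM across knockout libraries, against 47.0 and 63.8 CPM in wild type, and the groups did not overlap. Its log2 fold change was 1.00 (SE 0.38, interval 0.25 to 1.76; adjusted p = 0.0540), and it passed without knockout 2 (1.18, adjusted p = 0.0413). Its paralog Rab11b was at 0.04 (interval -0.83 to 0.90); whether the 2 paralogs differ was not tested. Rab8a, which guides vesicles to the membrane and the cilium, had 86.5, 90.3 and 40.5 CPM across knockout libraries, against 32.9 and 47.8 CPM in wild type. Knockout 3 lay inside the wild type range, and the log2 fold change was 0.82 (interval -0.06 to 1.70; adjusted p = 0.218). Its paralog Rab8b was at -0.35 (interval -0.94 to 0.25). Rab14, which links endosomes and the trans-Golgi, had 115, 124 and 142 CPM across knockout libraries, against 94.0 and 69.1 CPM in wild type. The groups did not overlap, and the log2 fold change was 0.63 (interval -0.03 to 1.29; adjusted p = 0.208).

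The 3 Rab5 paralogs, which organise early endosomes and their fusion, did not pass: Rab5a was at 0.36, Rab5b at -0.11 and Rab5c at -0.35. Rab5c had 115, 147 and 138 CPM across knockout libraries, against 146 and 197 CPM in wild type. Rab10, the member with the most counts (362 in all), was measured best, with a log2 fold change of -0.16 (SE 0.19, interval -0.54 to 0.21). Rab10 lies opposite 143 exon bases of Rab10os, which had 3 counts in all. Rab21, a Rab of integrin uptake, was at 0.26 (interval -0.80 to 1.33) and reached the cutoff of the filter in knockout libraries alone. Rab31, a Rab of trans-Golgi to endosome transport, rested on 1 library. It had 57.7, 42.8 and 52.6 CPM across knockout libraries, against 42.3 and 144 CPM in wild type. The log2 fold change was -0.82 (adjusted p = 0.149), but 0.26 without wild type 2 and -1.5 without wild type 1, where it passed (adjusted p = 0.0210). Rab35, a recycling Rab, had 3, 5 and 13 counts across knockout libraries, against 7 and 2 in wild type. Rab4a, Rab4b, Rab13, Rab15, Rab20 and Rab22a had 17 or fewer counts in all. The class summed to 1312, 1188 and 1311 CPM across knockout libraries, against 1226 and 1345 CPM in wild type.

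**Figure D3:**
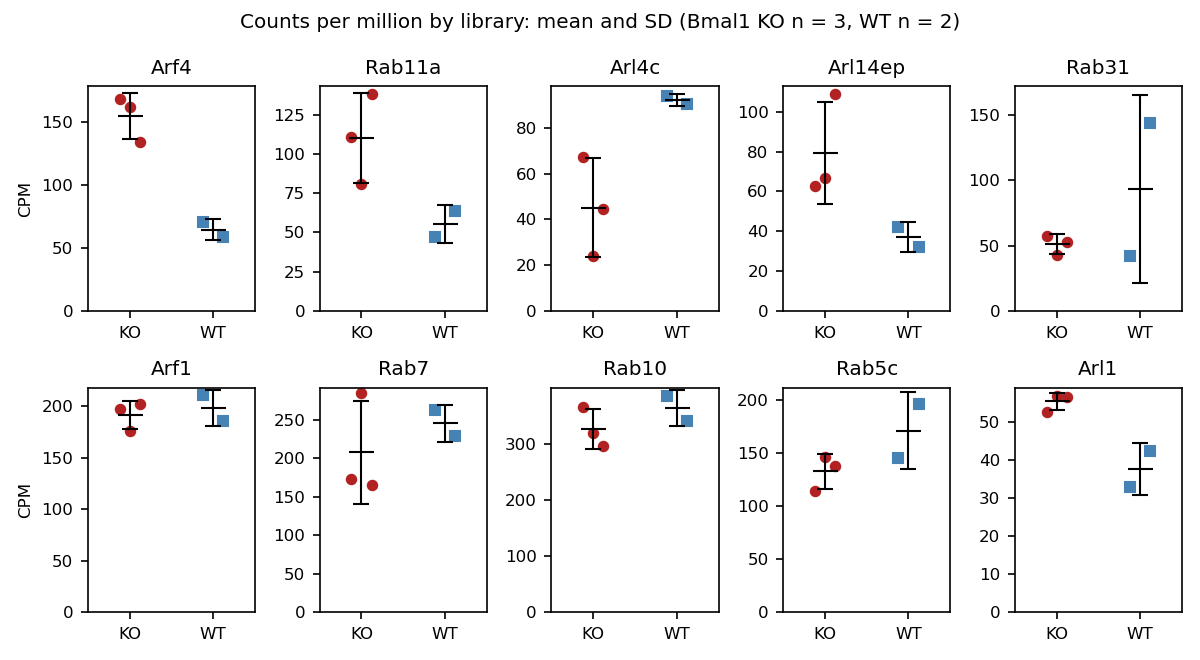
CPM in each library of 10 tested members, knockout (circles, n = 3) left of wild type (squares, n = 2), with group mean and SD as black bars and axes from 0. The upper row holds the 5 members with the smallest p, and the lower row the 5 most abundant of the others. Arf4 shows 134 to 168 CPM against 58.5 and 70.5 CPM, while 1 wild type library at 144 CPM sets the mean of Rab31.

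The late endosome and lysosome Rabs had 10 members, 3 of them tested and none past the test. Rab7 had 36, 60 and 41 counts across knockout libraries, against 56 and 43 in wild type, a log2 fold change of -0.25 (interval -0.72 to 0.21; adjusted p = 0.527). Its groups overlapped because knockout 2, at 285 CPM, exceeded both wild type libraries. Rab24, a Rab linked to autophagy, was at -0.08 (interval -0.96 to 0.80), and 1258 of its exon bases lie opposite Prelid1. Rab32, which serves melanosomes and other lysosome-related organelles, was at 0.09 with the widest error (SE 0.63). Rab32 split both genotypes, at 52.8, 14.3 and 44.5 CPM across knockout libraries, against 14.1 and 58.5 CPM in wild type. Rab9, which returns receptors from late endosomes to the Golgi, had 5, 6 and 4 counts across knockout libraries, against 3 and 3 in wild type. Rab12, a Rab of degradative and recycling traffic, had 6, 2 and 9 counts across knockout libraries, against 6 and 11.05 in wild type. Rab34, a Rab of lysosome positioning and ciliation, had 14, 3 and 4 counts across knockout libraries, against 2 and 4 in wild type. Rab7b, Rab29, Rab36 and Rab38 had 17.6 or fewer counts in all. The class summed to 432, 423 and 356 CPM across knockout libraries, against 460 and 489 CPM in wild type. These sums did not overlap, as held in that direction for 21.6% of all tested genes. The summed level of the macrophage markers was lower in the knockout libraries too, and its part was not tested.

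The Rabs of regulated secretion, which act where cells store and release granules, were scarce. Of 6 listed, only Rab3a was well measured, with 2, 8 and 14 counts across knockout libraries, against 5 and 1 in wild type. Rab3c, Rab3d, Rab27a, Rab27b and Rab37 had 12 or fewer counts each. The class summed to 19.2, 52.3 and 89.0 CPM across knockout libraries, against 51.7 and 69.1 CPM in wild type, with overlap. Rab27a and Rab27b, which dock granules and exosome-bearing endosomes, had knockout counts in knockout 3 alone, 3 each. Among the remaining Rabs, Rab23, a negative regulator of hedgehog signalling, had 4, 8 and 9 counts across knockout libraries, against 3 and 1 in wild type, below the filter. Rab28, a ciliary Rab, had 3, 5 and 5 counts across knockout libraries, against 4 and 3 in wild type. Rab39, Rab39b and Rab40c had 10 or fewer counts in all. These 5 ciliary and other Rabs summed to 52.8, 99.8 and 80.9 CPM across knockout libraries, against 42.3 and 31.9 CPM in wild type, without overlap, and none of them was tested. Every knockout library lay above every wild type library in 21.2% of all tested genes.

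Standard errors of the 28 members ran from 0.19 to 0.63, with a median of 0.39. For 14 of the 28 the 95% interval lay within a log2 value of 1 on either side of 0, so a doubling or halving lay outside it. For the other 14, Arf4 included, it reached further. In 20 of the 28 the estimate was within 0.5 of 0, as it was in 58.9% of all tested genes.

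BMAL1 binds the E-box, and the promoters of members were searched for it. RefSeq promoters (GRCm38.p6, 250 bases before to 50 after a gene's start) were found for 66 of the 79 members. CACGTG, which reads the same on both strands, occurred in 11 of the 66 (16.7%), against 11.3% of the genes listed in any library and 8.09% of all genes with a promoter. A longer palindrome, CACGTG with GT before it and AC after it, occurred in 4 members (6.06%), Rab5a, Rab21, Rab24 and Arl2, against 0.714% of listed genes. These shares are descriptions with no test, and which factors bind either sequence in these cells was not tested. Of the 24 tested members with a promoter, 3 held CACGTG (12.5%), close to the 12.4% of all tested genes with a promoter. These were Rab5a, Rab21 and Rab24, none of which passed the test, and they also held the longer palindrome, as did 1.03% of tested genes. The other members with CACGTG were Arf5, Arl2, Arl3, Arl5b, Rab10os, Rab20, Rab23 and Rab27a. The promoter of Arf4, the member that rose, did not hold these letters, which says nothing of binding elsewhere.

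The promoter of Arf4 is shown as that of the called member, and those of Rab5a, Rab21 and Rab24 as tested members with the longer palindrome, each 5′ to 3′ on the strand of the gene with CACGTG in capitals. They lie at chr14:26637884-26638183 (plus strand), chr17:53478984-53479283 (plus), chr10:115315542-115315841 (minus) and chr13:55321931-55322230 (minus). Rab5a held CACGTG at 2 places.
Arf4: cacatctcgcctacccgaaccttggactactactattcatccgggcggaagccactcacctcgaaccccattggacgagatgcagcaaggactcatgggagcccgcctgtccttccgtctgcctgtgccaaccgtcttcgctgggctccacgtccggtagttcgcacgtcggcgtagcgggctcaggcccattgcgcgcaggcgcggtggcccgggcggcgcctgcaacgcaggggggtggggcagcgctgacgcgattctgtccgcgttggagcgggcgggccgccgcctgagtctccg
Rab5a: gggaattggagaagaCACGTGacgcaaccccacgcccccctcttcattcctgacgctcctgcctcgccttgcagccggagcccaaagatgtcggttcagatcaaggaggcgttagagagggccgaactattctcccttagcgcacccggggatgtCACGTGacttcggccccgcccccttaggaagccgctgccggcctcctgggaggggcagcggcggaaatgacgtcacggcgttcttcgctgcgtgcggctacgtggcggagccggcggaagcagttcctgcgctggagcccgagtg
Rab21: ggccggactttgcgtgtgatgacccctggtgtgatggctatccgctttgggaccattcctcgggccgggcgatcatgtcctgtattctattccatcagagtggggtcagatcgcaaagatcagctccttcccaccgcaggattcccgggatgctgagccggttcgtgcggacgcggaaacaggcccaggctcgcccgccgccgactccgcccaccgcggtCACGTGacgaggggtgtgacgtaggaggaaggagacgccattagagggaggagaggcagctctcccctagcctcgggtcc
Rab24: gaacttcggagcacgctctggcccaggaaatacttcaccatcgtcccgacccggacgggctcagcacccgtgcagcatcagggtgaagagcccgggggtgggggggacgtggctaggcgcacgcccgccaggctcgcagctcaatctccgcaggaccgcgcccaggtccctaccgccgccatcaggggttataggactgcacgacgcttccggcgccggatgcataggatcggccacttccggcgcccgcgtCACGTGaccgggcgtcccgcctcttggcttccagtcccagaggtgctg
Beside these sequences, the log2 fold changes were 1.24 for Arf4, 0.36 for Rab5a (adjusted p = 0.583), 0.26 for Rab21 (adjusted p = 0.805) and -0.08 for Rab24 (adjusted p = 0.928).

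The proteins that load, switch and read these GTPases were described from 11 lists. Their 268 symbols gave 252 listed genes outside the members and 90 tested genes. Of the 90, 7 were higher and 6 lower in the knockout, 14.4% in all, against 16.3% of all tested genes. Their median log2 fold change was -0.02. Of the 13 called genes, 9 have rows that also hold assembled transcripts not in RefSeq, and 6 lie opposite 100 or more exon bases of another gene. Arfgef1, Plekhm1 and Micall1 among them passed the filter on low counts only through the genotype where they were higher. Escort, prenylation and GDI proteins, which lipidate and extract Rabs, had 2 tested and 0 called, and Gdi2, the main extractor, was at -0.07. Rab exchange factors had 10 tested and 0 called, and Rab GTPase-activating proteins 9 tested and 0 called. The genes of highest FPKM in these lists were Trappc2l, a TRAPP complex subunit too low in counts to test, and Tbc1d8, at 0.40 (adjusted p = 0.323). In the retromer, COPII and clathrin lists they were the sorting nexin Snx2 at 0.08, the coat subunit Sec13 at 0.12 and the clathrin light chain Clta at 0.05, and none of the 3 passed.

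The Arf exchange factors, which load Arfs with GTP, had 3 tested genes of 13 listed, and the 3 fell, where 8.14% of all tested genes were lower. Arfgef1 passed the filter on low counts only through the wild type libraries, where it was high, so the filter favoured a fall. Of the 3, only Psd kept its call in more than 3 alternatives. Psd, an exchange factor of Arf6 best known from brain, had 40, 50 and 62 counts across knockout libraries, against 142 and 132 in wild type. The groups did not overlap, and the log2 fold change was -1.58 (SE 0.18; adjusted p = 3.8e-17) and passed under every alternative. The row of Psd holds 1 assembled transcript that is not in RefSeq, and its exons lie opposite 299 bases of Nfkb2. Arfgef1, which activates Arfs at the trans-Golgi, had 9, 6 and 7 counts across knockout libraries, against 17 and 15 in wild type (-1.25, adjusted p = 0.0311). The call of Arfgef1 was kept in 2 of 10 alternatives. It ended with no filter on low counts, with the replicate number as a block in the fit, with limma-voom and with limma on log2 FPKM, and with knockout 2 (-1.16), knockout 3 (-1.14), wild type 1 (-1.27) or wild type 2 (-1.26) left out. Cyth4, a cytohesin of blood cells that was named after its value was seen, had 20, 13 and 14 counts across knockout libraries, against 26 and 28 in wild type (-0.92, adjusted p = 0.0433). The call was kept in 3 of 11 alternatives, and ended with any library but knockout 1 left out (-0.77 to -1.08), with no filter, the block, DESeq2 and log2 FPKM. Its row holds 8 assembled transcripts. The summed level of the macrophage markers was also lower in the knockout libraries, and its part was not tested.

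The Arf GTPase-activating proteins went both ways among 7 tested. Git1, a scaffold of focal adhesions, was higher (0.91, adjusted p = 0.0145), with 56, 32 and 46 counts across knockout libraries, against 22 and 21 in wild type. Git1 kept its call in 6 of 11 alternatives. It lost it with DESeq2 (adjusted p = 0.116) and log2 FPKM (adjusted p = 0.178), and with knockout 1 (0.67), wild type 1 (0.83) or wild type 2 (0.95) left out. Arap1 had 13, 14 and 17 counts across knockout libraries, against 22 and 31 in wild type, and was lower (-1.0, adjusted p = 0.0287). Arap1 kept its call in 3 of 11 alternatives. It lost it with no filter, the block, DESeq2 and log2 FPKM (adjusted p 0.0793 to 0.193), and with knockout 1 (-0.95), knockout 2 (-1.0), knockout 3 (-1.04) or wild type 2 (-0.65) left out.

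Of 8 tested genes in the list of Arf and Arl effectors and binding proteins 2 rose. Arfrp1 among them is itself a GTPase, which the symbol pattern did not take. Golga1, the golgin that ARL1 recruits, rose by 0.32 (adjusted p = 0.0112), and Arfrp1, the GTPase that acts before ARL1 at the trans-Golgi, by 0.71 (adjusted p = 0.0239). Counts of both genes were not whole. The row of Golga1 holds 4 assembled transcripts. Its mean over all libraries was 335 FPKM, against 50.3 FPKM for Arl6ip5, the next highest tested gene of the list. The row of Arfrp1 holds 1 assembled transcript, and its exons lie opposite 449 bases of Zgpat. Golga1 kept its call in 5 of 11 alternatives. It lost it with the block (0.26, adjusted p = 0.262), with log2 FPKM (0.28, adjusted p = 0.162), and with any library but knockout 1 left out (0.26 to 0.34). Arfrp1 also kept its call in 5 of 11. It lost it with no filter (adjusted p = 0.0629), DESeq2 (0.156) and log2 FPKM (0.178), and with knockout 1 (0.59), knockout 2 (0.81) or wild type 2 (0.30) left out. Of 8 tested COPI coat genes, the coat that Arf1 and Arf4 recruit, 1 rose: Copg2 had 591, 666 and 792 counts across knockout libraries, against 386 and 321 in wild type. Its log2 fold change was 0.80 (SE 0.11; adjusted p = 3.9e-11) and passed under every alternative. Copg2 stood at 591 FPKM in the knockout and 368 FPKM in the wild type. Cope, the next highest of the tested COPI genes, stood at 37.5 and 30.6 FPKM, and the paralog Copg1 at 12.5 and 8.13 FPKM. Exons of Copg2 lie opposite 912 bases of Mest, and its row holds 1 assembled transcript. Reads of Copg2 and Mest in that overlap cannot be told apart, and whether the rise is of coat transcript was not tested. The COPI list had a median of -0.01. The COPII list, which includes the GTPases Sar1a and Sar1b, had 7 tested and 0 called (median 0.27), and the clathrin and adaptor list 15 tested and 0 called (median 0.26).

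Rab effectors had 11 tested, of which 2 rose and 2 fell. Plekhm1 passed the filter on low counts only through the wild type libraries and Micall1 only through the knockout libraries. Each was high there, so the filter favoured the direction found. Fyco1, which links Rab7 vesicles to kinesin, had 1454, 1487 and 1824 counts across knockout libraries, against 2393 and 1874 in wild type. It fell by 0.57 on the log2 scale (SE 0.10; adjusted p = 1.0e-07), passed under every alternative, and its row holds 4 assembled transcripts. The mean of Fyco1 over all libraries was 864 FPKM, against 90.9 FPKM for Rufy2, the next highest tested gene of the list. Plekhm1, a Rab7 effector of lysosome fusion, had 8, 8 and 4 counts across knockout libraries, against 17 and 13 in wild type (-1.29, adjusted p = 0.0386). Plekhm1 kept its call in 2 of 10 alternatives. It lost it with no filter, the block, voom and log2 FPKM, and with knockout 2 (-1.47), knockout 3 (-0.96), wild type 1 (-1.19) or wild type 2 (-1.39) left out. Micall1, a recycling endosome effector of Rab8a and Rab35, had 15, 14 and 21 counts across knockout libraries, against 3 and 5 in wild type (1.88, adjusted p = 0.00384). It was not called with voom (1.86, adjusted p = 0.188) or without wild type 1 (1.46, adjusted p = 0.178). Exons of Micall1 lie opposite 2229 bases of 1700088E04Rik. Kif20a, a kinesin that binds Rab6 and serves cell division, lies opposite 1271 bases of Cdc23 and was higher (0.77, adjusted p = 0.0372). Kif20a kept its call in 4 of 11 alternatives. It lost it with no filter, the block, DESeq2 and log2 FPKM (adjusted p 0.102 to 0.156), and with knockout 3 (0.68), wild type 1 (0.78) or wild type 2 (0.74) left out. Of the 10 tested HOPS, CORVET and retromer genes, Vps26b, a cargo-binding retromer subunit, rose. It had 89, 101 and 111 counts across knockout libraries, against 58 and 49 in wild type (0.76, SE 0.19; adjusted p = 0.00109). Vps26b lost its call with log2 FPKM (0.71, adjusted p = 0.106), without wild type 1 (0.78, adjusted p = 0.0511) and without wild type 2 (0.73, adjusted p = 0.0634).

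**Figure D4:**
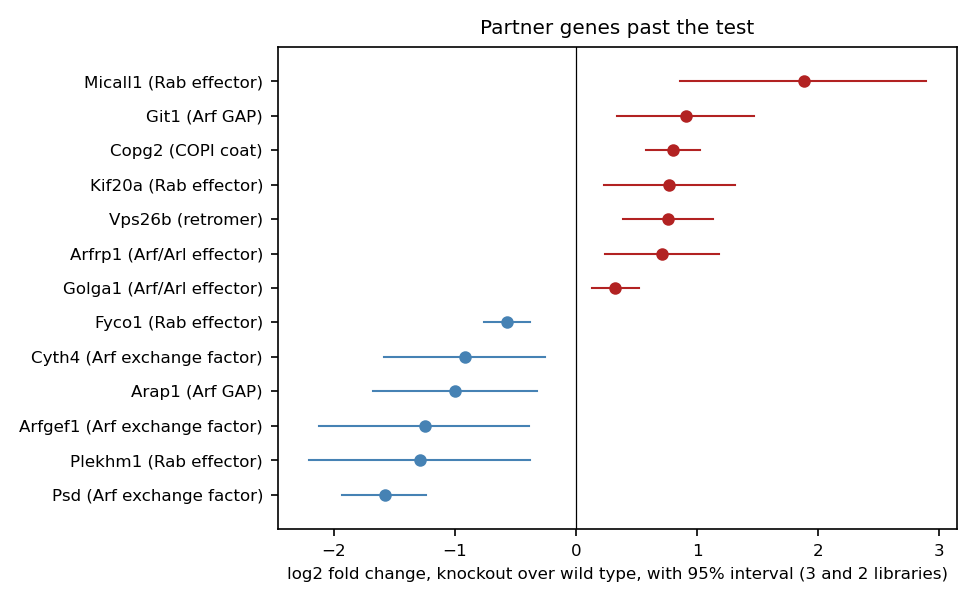
Log2 fold change, knockout over wild type, with 95% interval from edgeR (horizontal axis) of the 13 partner genes past the test, out of 90 tested. The 7 higher genes run from 0.32 to 1.88 and the 6 lower genes from -0.57 to -1.58, against 8.19% higher and 8.14% lower among all tested genes. The 3 tested Arf exchange factors, of 13 listed, lie on the lower side. Arfgef1, Plekhm1 and Micall1 passed the filter on low counts only through the genotype where they were higher.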

How the data were processed

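The data are 3 Bmal1-knockout and 2 wild type RNA libraries. For each library the authors deposited a gene table whose columns, per the file headers, are the expected count, the FPKM and the length. Per the submitters' processing notes, the build was mm10 and the tools included RSEM, Bowtie2, HISAT2 and StringTie; roles and versions are not given. A gene missing from a table was taken as 0. Of the listed counts, 93.8% to 94.2% were whole within 0.005; counts were rounded before testing. Tests used edgeR 4.0.16 in R 4.3.3: genes kept by filterByExpr (at least 10 counts, total at least 15), scaling by TMM, a robust quasi-likelihood model of genotype, and p-values adjusted by Benjamini-Hochberg over 3710 genes (threshold 0.05). CPM use the TMM-scaled totals of tested genes. Intervals are the estimate with its standard error from the quasi-likelihood F. Alternatives were RLE scaling, no filter, DESeq2 1.42.0, limma-voom (limma 3.58.1), limma on log2(FPKM + 1), the replicate number as a block and leaving out each library. The fit was tested on simulated counts of the tested genes, with the same dispersion for every gene. It called 55.9% of 93 genes changed 2-fold, 98.9% of 90 changed 4-fold and 0.13% of 3192 unchanged genes. The members were not simulated apart. Within a genotype libraries differed by more than sampling noise (chi-square per degree of freedom 1.381 to 1.628). Each library was counted, though this spread does not tell separate mice from technical repeats. Coordinates are RefSeq's on GRCm38.p6, and exon overlaps on the other strand come from GENCODE M21. The members, roles, partner lists and the naming rule were chosen with earlier results of these data known. The rule names all members with 20 or more counts; it gives statistics to members past the test, the largest rise and fall, and the 2 highest in FPKM per role. It names the 2 smallest adjusted p per direction and the highest FPKM of each partner list. Protein sequences were not analysed here.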

Additional observations from a re-analysis of the deposited data

How the results depend on the processing

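Arf4 passed the test in 10 of 11 alternatives, in each with a rise. Leaving out 1 library, 0 to 2 members were called higher and 0 to 1 lower, and the median over the tested members ran from -0.02 to 0.14. Over all tested genes, 149 were higher and 131 lower with DESeq2, 177 and 174 with limma on log2 FPKM, and 144 to 323 and 146 to 287 with a library left out. Of the partner genes, 3 were higher and 2 lower with DESeq2, 2 and 2 with log2 FPKM, and 2 to 5 and 2 to 8 with a library left out; 3 were lower with no filter. Genes with no adjusted p from DESeq2 count as neither. The replicate numbers are not said to pair samples, and same-numbered libraries had correlations of deviations of -0.008 and 0.026. Deviations of 2 wild type libraries from their mean mirror each other, so these values cannot settle whether samples were paired. With the replicate number as a block, 229 genes were higher and 212 lower, 1 member was higher, and 2 partner genes were lower. Under that block Arl5a was at 0.02, Arl8b at -0.33, Rab11b at -0.07, Rab24 at 0.07, Rab2a at 0.03 and Rab32 at -0.06, each with the sign turned. With a library left out the sign also turned within these ranges: Arf1 -0.14 to 0.03, Arf3 -0.54 to 0.34, Arf6 -0.74 to 0.20, Arl5a -0.13 to 0.02, Arl8b -0.37 to 0.60, Rab11b -0.37 to 0.51, Rab1a -0.06 to 0.14, Rab1b -0.19 to 0.86, Rab24 -0.49 to 0.39, Rab2a -0.38 to 0.42, Rab31 -1.50 to 0.26, Rab32 -0.65 to 1.37, Rab5a -0.05 to 0.79, Rab5b -0.45 to 0.35, and of partner genes that did not pass, Gdi2 -0.20 to 0.03, Snx2 -0.23 to 0.40, Sec13 -0.24 to 0.64 and Clta -0.01 to 0.12. The cause was not tested; fewer samples, and other sets of tested genes, enter these fits. At this depth 51 of the 79 genes were too low to test.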
